A study of Mus musculus with 4 samples.

Results

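Granzymes and the genes that work beside them were examined by RNA-seq in 4 libraries of CD4+ T cells from the spleen. The set held 10 genes. They are the granzymes *Gzmb*, *Gzma*, *Gzmk*, *Gzmm* and *Gzmc*, the pore former *Prf1*, the granule genes *Nkg7* and *Ctsw*, and the NK receptor genes *Klrd1* and *Klrk1*. They were listed by name and matched on the gene symbol, and all 10 were found among the 55367 symbols of the count tables. They were chosen by name, with their CPM levels and the difference between genotypes in these same libraries already known, so that difference is given as a description and carries no test. Of the libraries, 2 came from mice labelled WT and 2 from mice labelled *Satb1* conditional knockout (cKO), all of the C57BL/6 strain and without treatment. The labels do not name the Cre driver; the series text names ThPOK-cre and E8I-cre, and the study pairs CD4+ cells with the first, a driver that acts once thymocytes commit to the CD4 lineage, and so acts in both conventional and regulatory T (Treg) cells. The study's methods describe young adult mice of both sexes for the work as a whole. The labels give neither age nor sex for these libraries, nor the alleles that the WT mice carry.

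Cytotoxic lymphocytes kill by releasing granules at the contact with a target cell. Perforin, the product of *Prf1*, opens the target membrane, and granzymes are serine proteases that pass through and cleave proteins that keep the target alive. These genes are known from CD8+ T cells and natural killer (NK) cells, and resting helper T cells carry little of them, whereas activated, memory and some Treg cells can express granzymes.

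The total gene count lay between 4495902 and 6555699 per library, and a count of 3, taken as the floor, corresponded to between 0.458 and 0.667 CPM (counts scaled to a library total of 1000000). *Satb1* itself was at 865 and 979 CPM in WT 1 and WT 2 and at 941 and 844 CPM in cKO 1 and cKO 2, so its gene-level count does not separate the genotypes and every direction below follows the labels. *Xist* was counted 5447 and 4235 times in WT against 9 and 6 times in cKO. The Y-linked gene *Ddx3y* was counted 0 times in either WT library and 525 and 597 times in cKO 1 and cKO 2. The WT libraries thus read as female and the cKO libraries as male. Sex and genotype cannot be told apart for any difference given below. *Cd4*, which defines the sorted cells, was at 1273 and 1262 CPM in the WT libraries and 1274 and 1178 CPM in the cKO libraries. Each gene level below is CPM on library sizes adjusted with edgeR's TMM factors, as mean ± SD with n = 2 libraries a genotype, and each difference is the log2 fold change of cKO over WT from edgeR. The study calls the 2 libraries of a genotype biological replicates, and errors cover the spread between them.

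The granule genes were lower where the label was cKO, and in the fit to all 4 libraries the granzymes *Gzma* and *Gzmb* stood furthest apart. Without cKO 1 the log2 fold change of *Klrd1* (-3.79) passed that of *Gzmb* (-3.30). Of the 10 genes, 9 had both cKO libraries below both WT libraries, a pattern that 25.4% of all 12403 tested genes showed. The exception was *Gzmm*, and 0 of the 10 had both cKO libraries above both WT libraries (24.8% of tested genes). Of the 10 genes, 8 passed the filter on low counts, and 3 of these (*Gzma*, *Klrd1* and *Klrk1*) passed it through the WT libraries alone, so a difference was built into their passing. In the edgeR quasi-likelihood test over all genes 7 of the 8 were called lower at an adjusted p under 0.05 and 0 higher, where 1.95% of all tested genes were called lower. All 8 had a log2 fold change of -1 or lower, as 2.68% of tested genes did. Nothing is read from these counts, since the same values were known when the genes were chosen. In bulk libraries, fewer cells of a type and less RNA per cell cannot be told apart.

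**Figure D1:**
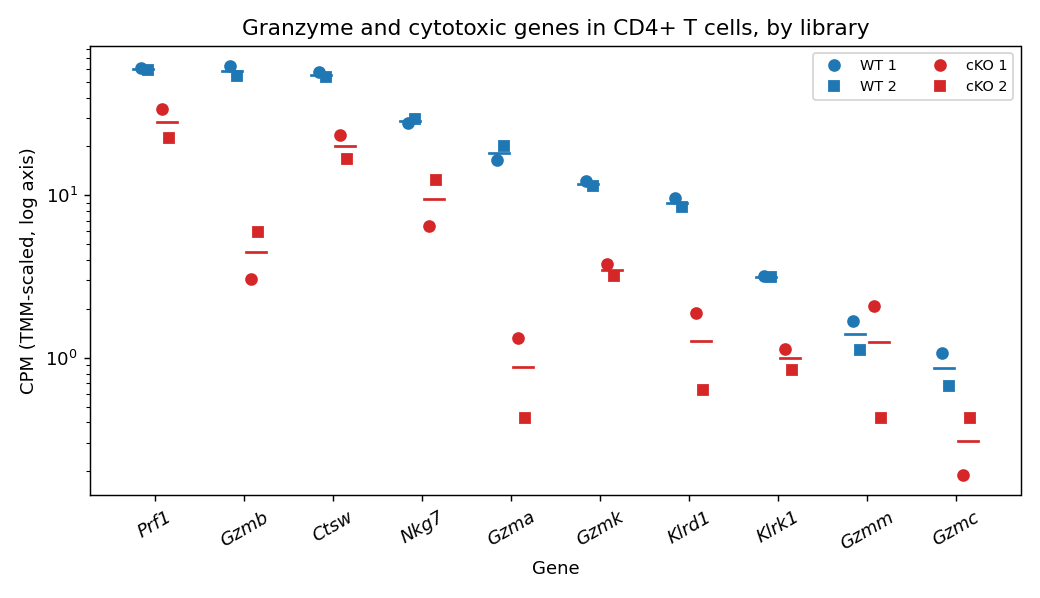
CPM (TMM-scaled, log axis) of the 10 genes in each library, with circles for replicate 1, squares for replicate 2, blue for WT, red for cKO and a bar at each genotype's mean (n = 2). All genes but *Gzmm* have both red points below both blue points, and the gap is widest for *Gzma* and *Gzmb*.

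*Gzmb* occupies chromosome 14, 56258838 to 56262260, minus strand (build GRCm38). Its product, granzyme B, cuts after aspartate and activates caspases. *Gzmb* was counted 409 times in WT 1, 242 times in WT 2, 16 times in cKO 1 and 28 times in cKO 2. In CPM these were 62.3, 54.0, 3.04 and 5.93, so that the lowest WT library was well above the highest cKO library. Its level was 58.1 ± 5.87 CPM (SD, n = 2) in WT and 4.48 ± 2.04 CPM (SD, n = 2) in cKO. Fitted by edgeR, the log2 fold change was -3.72 ± 0.24 (SE; 95% interval -4.27 to -3.16), a 13.1-fold lower level.

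*Gzma* occupies chromosome 13, 113093825 to 113100981, minus strand. It encodes granzyme A, which cuts after lysine or arginine. *Gzma* had 108 and 90 counts in WT 1 and WT 2 but 7 and 2 in cKO 1 and cKO 2, the last of these under the floor. Its level was 18.3 ± 2.57 CPM (SD, n = 2) in WT and 0.876 ± 0.640 CPM (SD, n = 2) in cKO. Fitted by edgeR, the log2 fold change was -4.30 ± 0.40 (SE), with -5.34 when cKO 1 was left out and -3.74 when cKO 2 was. Because the cKO counts are few, the depth-scaled ratio of summed counts is also given, at 0.0502 of the WT level with an exact counting interval of 0.0226 to 0.0973.

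*Gzmk*, the neighbour of *Gzma* on chromosome 13 (113171608 to 113225908, minus strand), encodes a granzyme of similar cleavage preference that is typical of memory cells. Its level was 12.2 and 11.4 CPM in the WT libraries and 3.79 and 3.17 CPM in cKO 1 and cKO 2. The libraries of a genotype lay close together. Fitted by edgeR, the log2 fold change was -1.75 ± 0.28 (SE; 95% interval -2.39 to -1.11).

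*Gzmm* on chromosome 10 (79689020 to 79695261, plus strand) encodes granzyme M, known from NK cells. Its counts were 11 (WT 1), 5 (WT 2), 11 (cKO 1) and 2 (cKO 2). The highest level, 2.09 CPM, and the lowest, 0.423 CPM, were both in cKO libraries, so the genotypes overlapped. The depth-scaled ratio of cKO to WT was 0.898 with an exact counting interval of 0.397 to 1.99. That interval pools the libraries of a genotype and covers counting error only, and the cKO libraries differed from each other.

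*Gzmc*, 24182 bases from *Gzmb* on chromosome 14 (56231441 to 56234656, minus strand), was close to absent. It had 7, 3, 1 and 2 counts in WT 1, WT 2, cKO 1 and cKO 2, of which all but the first are at or under the floor. The ratio was 0.332 with an exact counting interval of 0.0586 to 1.29, which spans no difference. The other genes of this cluster, *Gzmd*, *Gzme*, *Gzmg* and *Gzmn*, had 0 counts in all 4 libraries and *Gzmf* had 1 count in WT 1 and 1 in cKO 2. Windows of 50 bases, the read length, were unique to the gene for *Gzmb*, *Gzma*, *Gzmk* and *Gzmm* among annotated transcripts, whereas 4.14% of those of *Gzmc* also occur in *Gzmd*, *Gzme* or *Gzmg*.

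The make-up of the granzyme counts within a library does not depend on how libraries are scaled. In WT 1 *Gzmb* took 66.5% of the 615 counts of the 5 granzymes (Wilson interval 62.7 to 70.1), and in WT 2 it took 61.9% of 391 counts (57.0 to 66.6). In cKO 1 its share was 29.1% of 55 counts (18.8 to 42.1). In cKO 2 it was 57.1% of 49 counts (43.3 to 70.0), within reach of the WT shares. The cKO libraries thus differed from each other in this share more than the WT libraries did. *Gzmk* went from 13.0% in each WT library to 36.4% in cKO 1 (24.9 to 49.6) and 30.6% in cKO 2 (19.5 to 44.5). *Gzmm* took 11 of the 55 granzyme counts in cKO 1 (Wilson interval 11.6% to 32.4%) and between 1.28% and 4.08% in the other libraries. These intervals cover counting error only.

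**Figure D2:**
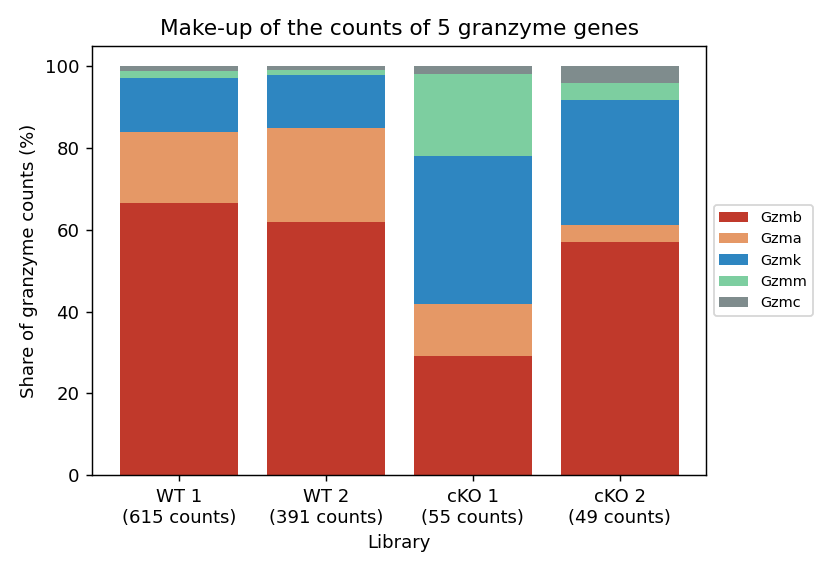
Share of each granzyme (%, stacked to 100) among the counts of the 5 granzyme genes in each library, with the number of counts under each bar. *Gzmb* takes 66.5% and 61.9% in the WT libraries, and *Gzmk* takes 36.4% and 30.6% in the cKO libraries.

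*Prf1* on chromosome 10 (61297833 to 61304680, plus strand) had the smallest fitted difference of the tested genes in the set, although without cKO 1 *Nkg7* had the smallest (-1.20 against -1.41 for *Prf1*). It had 402 and 264 counts in WT 1 and WT 2 and 179 and 107 in cKO 1 and cKO 2. The level was 60.1 ± 1.65 CPM (SD, n = 2) in WT and 28.3 ± 8.0 CPM (SD, n = 2) in cKO, and the cKO libraries (34.0 and 22.6 CPM) spread more than the WT libraries. Fitted by edgeR, the log2 fold change was -1.08 ± 0.18 (SE; 95% interval -1.49 to -0.67). In the WT libraries there were 1.02 and 0.917 counts of *Gzmb* for each count of *Prf1*. In cKO 1 and cKO 2 there were 0.0894 and 0.262. The 2 genes thus moved by unequal amounts, a comparison that needs no scaling between libraries.

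*Nkg7* and *Ctsw* are expressed with the granule genes. *Nkg7* encodes a membrane protein of the granule that promotes its release, and *Ctsw* encodes cathepsin W, a cysteine protease of cytotoxic lymphocytes. *Nkg7* (chromosome 7, 43437073 to 43438249, plus strand) was at 27.9 and 29.7 CPM in the WT libraries and at 6.45 and 12.5 CPM in cKO 1 and cKO 2. Here cKO 2 was the higher of the cKO libraries, as for *Gzmb* and unlike *Prf1*. Its log2 fold change was -1.61 ± 0.27 (SE). *Ctsw* (chromosome 19, 5465043 to 5468507, minus strand) was at 57.4 and 53.3 CPM in the WT libraries and 23.5 and 16.7 CPM in the cKO libraries. Its log2 fold change was -1.46 ± 0.17 (SE). Only 0.477% of its exonic sequence overlaps another gene, *Fibp* on the opposite strand.

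*Klrd1* and *Klrk1* lie 11548 bases apart in the NK gene complex of chromosome 6. *Klrd1* encodes CD94, which pairs with NKG2 chains to read a non-classical MHC molecule, and *Klrk1* encodes NKG2D, a receptor for stress-induced ligands. *Klrd1* (129591782 to 129598775, plus strand) was counted 63 and 38 times in WT but 10 and 3 times in cKO 1 and cKO 2, so cKO 2 was at the floor. Its level was 9.04 ± 0.790 CPM (SD, n = 2) in WT and 1.27 ± 0.893 CPM (SD, n = 2) in cKO. Fitted by edgeR, the log2 fold change was -2.79 ± 0.44 (SE), and it was -3.79 without cKO 1. *Klrk1* (129610323 to 129623864, minus strand) was scarcer, with 21, 14, 6 and 4 counts in WT 1, WT 2, cKO 1 and cKO 2. Its libraries did not overlap, at 3.20 and 3.12 CPM against 1.14 and 0.847 CPM, and its log2 fold change was -1.64 ± 0.46 (SE).

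**Figure D3:**
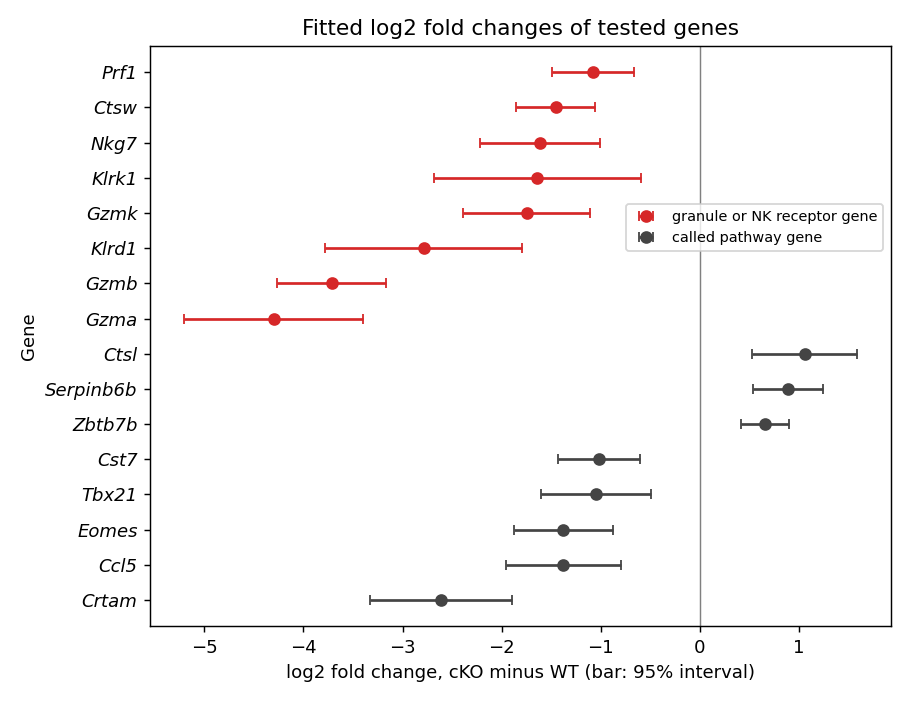
Fitted log2 fold change of cKO over WT with its 95% interval, for the 8 tested genes of the set (red) and for the 8 called genes of the wider pathway lists (grey). *Gzma*, *Klrd1* and *Klrk1* passed the filter through the WT libraries alone, and the red points run from -4.30 (*Gzma*) to -1.08 (*Prf1*).

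To order the genes against each other, levels were divided by exonic length in kilobases. On this scale *Gzmb* led in WT at 43.4 and 37.6 CPM per kilobase in WT 1 and WT 2. *Nkg7* followed at 30.5 and 32.5, *Ctsw* at 30.4 and 28.3 and *Prf1* at 23.7 and 22.8. None of these ranges overlapped the next, but the lower *Nkg7* and the higher *Ctsw* value differed by less than the spread within either gene. *Gzma* (16.4 and 19.96), *Gzmk* (8.77 and 8.19) and *Klrd1* (7.49 and 6.62) came next, and *Gzmc*, *Gzmm* and *Klrk1* were all at or under 1.19. In the cKO libraries *Prf1* (13.1 and 8.76), *Ctsw* (12.5 and 8.86) and *Nkg7* (7.06 and 13.7) led and overlapped. *Gzmb* (2.11 and 4.13) lay below them and overlapped *Gzmk* (2.73 and 2.29). *Klrd1*, *Gzma* and *Gzmm* followed between 0.288 and 1.48 and overlapped, *Gzmc* (0.212 and 0.473) overlapped *Gzma* and *Gzmm* but lay below *Klrd1*, and *Klrk1* was lowest (0.158 and 0.118). *Gzmb*, first in WT, thus stood behind *Prf1*, *Ctsw* and *Nkg7* in cKO. Summed over the 10 genes, the level was 253 and 241 CPM in the WT libraries and 77.4 and 63.7 CPM in the cKO libraries.

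Promoters of the most abundant granzymes are shown as a description of these genes. A link between promoter sequence and level was not tested. RefSeq (GRCm38.p6) gave a promoter for 8 of the 10 genes, and the bases just before the start site were searched on both strands for 5 motifs in 250 bases. These were TGTGGT, the core bound by RUNX factors, GGTGTGA, a T-box half-site, TGANTCA for AP-1, TGACGTC for CREB-type factors, and AATATATTT, the core of base-unpairing regions that SATB1 is known for binding. All lines below read 5′ to 3′ on the gene's own strand, which is minus for each, and capitals mark a motif or its reverse complement. They span chr14:56262335-56262584 for *Gzmb*, chr13:113100982-113101231 for *Gzma* and chr13:113180966-113181215 for *Gzmk*. The RefSeq start lies upstream of the GENCODE gene for *Gzmb* and inside it for *Gzmk*. Distances are counted from the RefSeq start.
Gzmb: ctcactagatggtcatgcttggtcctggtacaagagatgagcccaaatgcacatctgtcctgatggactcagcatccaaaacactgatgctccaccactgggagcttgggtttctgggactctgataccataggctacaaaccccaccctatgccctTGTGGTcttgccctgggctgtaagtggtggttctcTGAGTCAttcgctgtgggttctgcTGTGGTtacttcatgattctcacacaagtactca
Gzma: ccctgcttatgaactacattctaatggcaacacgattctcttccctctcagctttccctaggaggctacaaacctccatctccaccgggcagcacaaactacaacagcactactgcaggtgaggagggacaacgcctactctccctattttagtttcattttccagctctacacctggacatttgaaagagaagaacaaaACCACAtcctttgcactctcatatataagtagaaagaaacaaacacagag
Gzmk: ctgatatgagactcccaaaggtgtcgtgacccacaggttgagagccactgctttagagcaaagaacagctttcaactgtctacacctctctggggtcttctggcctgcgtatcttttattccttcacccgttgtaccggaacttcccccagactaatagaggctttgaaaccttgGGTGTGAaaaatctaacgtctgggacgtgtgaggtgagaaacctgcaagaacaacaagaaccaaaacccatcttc

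In the *Gzmb* sequence TGTGGT begins 93 and 34 bases before the start site, with TGAGTCA, an AP-1 match, between them at 58 bases. The *Gzma* sequence holds the RUNX core on the opposite strand, as ACCACA, 50 bases before the start. The *Gzmk* sequence holds no RUNX core but 1 T-box half-site, 75 bases before the start. Over the 9 promoter windows of these genes, since *Gzmm* has 2, the RUNX core occurred in 7, where 14.0% of all 32851 windows hold it. The T-box half-site occurred in 3 (3.33% of all windows), and the AP-1 motif in 1 (6.75%). The CREB-type motif occurred in 1, that of *Gzmc* (2.78%), and the base-unpairing core in 0 (0.344%). These are matches of letters and not evidence of binding. AP-1 and CREB-type matches read the same on both strands in part and are counted by window.

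The set is part of a wider machinery, so 102 other genes of granule biology, NK receptors and cytotoxic transcription factors were read from the same fit in 11 lists by role. Of 99 matched, 62 were tested, 3 rose in cKO, 5 fell and 54 were not called. These counts rest on single libraries and on the model, with 0 higher and 4 lower without WT 2, 12 and 13 without cKO 2, and 5 and 11 with a replicate block. Over all tested genes 4.30% were called, 2.35% higher and 1.95% lower. The median log2 fold change of the 62 genes was 0.01, beside -0.0015 for all genes tested, with a range from -2.61 to 1.06. The members of these lists were spread on both sides of 0, with 32 above and 30 below.

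**Figure D4:**
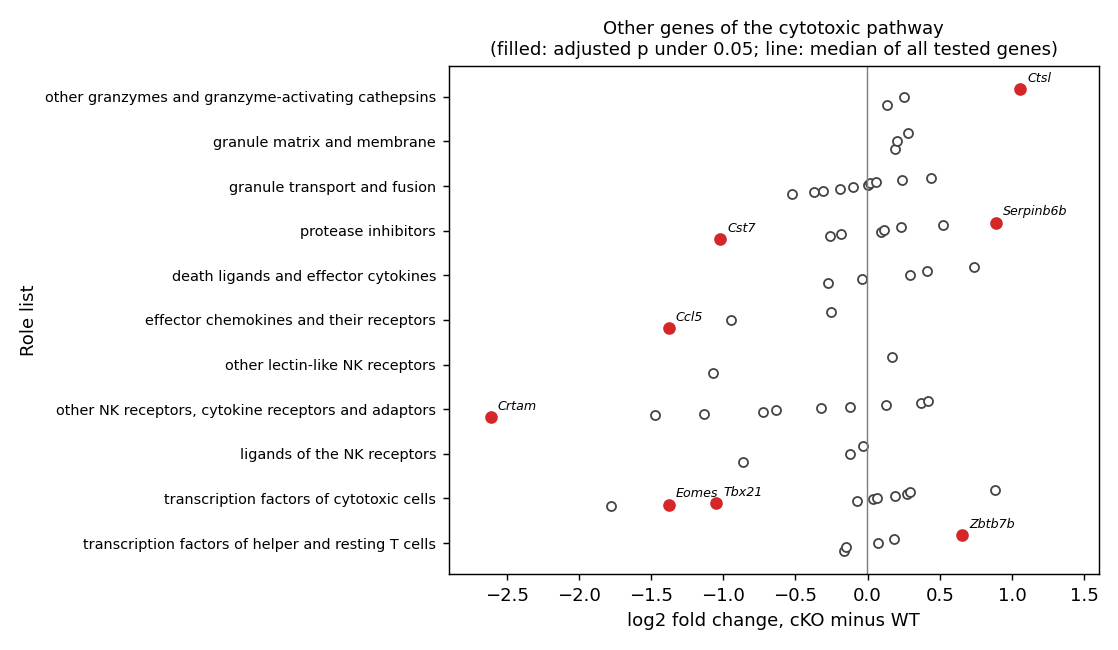
Log2 fold change of cKO over WT for the 62 tested genes of the wider machinery, one row a role list, filled and named where the edgeR adjusted p was under 0.05, with a line at the median of all tested genes. The 5 genes called lower sit in 4 lists. Granule matrix, transport and fusion genes hold 0 calls, where 4.3% of all tested genes were called, and the lists were not compared by a test.

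Among transcription factors of cytotoxic cells, 10 of 10 were tested and 2 fell. *Eomes*, a T-box factor that drives effector and memory cytotoxic programmes, was at 39.6 and 32.1 CPM in the WT libraries and at 11 and 16.9 CPM in cKO 1 and cKO 2. It fell by 1.38 on the log2 scale with an SE of 0.22 (edgeR quasi-likelihood adjusted p = 0.0113). *Tbx21*, which encodes T-bet, was at 26.7, 21, 9.11 and 14.2 CPM and fell by 1.05 with an SE of 0.24 (edgeR adjusted p = 0.0494). That call was lost in DESeq2 (adjusted p = 0.0582), with total-count scaling (0.0533), after thinning to the smallest total gene count (0.0670), without WT 1 (0.154) and without WT 2 (0.0932). *Runx3*, a factor of the CD8 lineage, had the highest level of the list, at 150 ± 7.30 CPM in WT and 156 ± 33.2 CPM in cKO (SD, n = 2 each). Its log2 fold change was 0.06 (edgeR adjusted p = 0.858, 95% interval -0.26 to 0.39). The median of the list was 0.05.

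Of the 5 factors of helper and resting T cells, 1 rose and 0 fell. *Zbtb7b*, which encodes ThPOK, the factor that sets the helper lineage and restrains cytotoxic genes, was at 231 and 199 CPM in the WT libraries and 336 and 344 CPM in the cKO libraries. It rose by 0.66 on the log2 scale with an SE of 0.11 (edgeR adjusted p = 0.0117), and without WT 2 it was not called (0.55, adjusted p = 0.236). *Zbtb7b* is also the gene behind the Cre driver of the cKO mice, and reads of a transgene were not told apart from those of the gene. *Tcf7*, which keeps T cells naive-like, led the list at 2356 ± 145 CPM in WT and 2105 ± 443 CPM in cKO (SD, n = 2 each), with a log2 fold change of -0.16 (edgeR adjusted p = 0.655). Without cKO 1 it was called lower (-0.40, adjusted p = 0.00520).

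Of the effector chemokines and their receptors 3 of 8 were tested, and 1 fell. *Ccl5*, a chemokine stored by memory cytotoxic cells, was at 59.1 and 42.4 CPM in the WT libraries and 14.4 and 25.2 CPM in the cKO libraries. It fell by 1.38 with an SE of 0.25 (edgeR adjusted p = 0.0206). *Cxcr3*, the receptor that led this list by level, was at 53.0 and 53.8 CPM in WT but at 30.9 and 59.3 CPM in cKO 1 and cKO 2. The genotypes overlapped (log2 fold change -0.25, edgeR adjusted p = 0.643), and without cKO 2 *Cxcr3* was called lower (-0.78, adjusted p = 0.000289).

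Of 13 other NK receptors, cytokine receptors and adaptors, 10 were tested and 1 fell, with a list median of -0.48. *Crtam*, an adhesion receptor that marks cytotoxic CD4+ cells, was at 27.7 and 27.9 CPM in the WT libraries and at 2.66 and 6.56 CPM in cKO 1 and cKO 2. It fell by 2.61 with an SE of 0.32 (edgeR adjusted p = 0.00338), with -2.08 when cKO 1 was left out and -3.37 when cKO 2 was. *Cd247*, the zeta chain of the T cell receptor complex, had the highest level, at 611 ± 10.1 CPM in WT and 669 ± 51.1 CPM in cKO (SD, n = 2 each; edgeR adjusted p = 0.569), with 60.3% of its exonic sequence shared with other annotated genes. Of 20 other lectin-like NK receptors, such as the Ly49 genes, only *Klrg1* and *Klrb1c* passed the filter, and 3 had 0 counts in all libraries. *Klrg1*, a marker of terminal effector cells, was at 6.10 ± 1.06 CPM in WT and 7.01 ± 2.66 CPM in cKO (SD, n = 2 each; edgeR adjusted p = 0.839). *Klrc1*, which encodes the partner of CD94 and is named here after its values were seen, was counted 2 and 7 times in WT and 0 times in either cKO library. Of the 6 matched ligands of these receptors, 3 were tested and 0 were called. *H2-T23*, which encodes the ligand of CD94 with NKG2, was at 223 ± 19.8 CPM in WT and 218 ± 3.22 CPM in cKO (SD, n = 2 each; edgeR adjusted p = 0.904).

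Genes that hold and release granules gave 0 calls, where 4.3% of all tested genes were called, and nothing is read from this. Of the 4 genes of granule matrix and membrane 3 were tested and 0 called, with a list median of 0.21. *Srgn*, the proteoglycan core on which granzymes are packed, was at 249 ± 31.1 CPM in WT and 302 ± 28.0 CPM in cKO (SD, n = 2 each), a log2 fold change of 0.28 (edgeR adjusted p = 0.248). Of the alternatives run, it was called higher only when cKO 2 was left out (0.37, adjusted p = 0.00383). All 10 genes of granule transport and fusion were tested, 0 were called and the median was -0.05, with a range from -0.52 to 0.44. *Unc13d*, which encodes the priming factor Munc13-4, was at 196 ± 23.6 CPM in WT and 171 ± 3.01 CPM in cKO (SD, n = 2 each; log2 fold change -0.19, edgeR adjusted p = 0.394).

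Among the cathepsins listed with the other granzymes, *Ctsc* was at 91.8 and 100 CPM in the WT libraries and 135 and 92.5 CPM in cKO 1 and cKO 2. It was not called (log2 fold change 0.25, edgeR adjusted p = 0.470). *Ctsl* rose by 1.06 with an SE of 0.23 (edgeR adjusted p = 0.0413). Its level went from 7.46 and 7.59 CPM in the WT libraries to 17.3 and 14.0 CPM in cKO 1 and cKO 2. The call was lost in DESeq2 (adjusted p = 0.114), after the same thinning (0.0707), without WT 1 (0.109) and without WT 2 (0.216), and 26.8% of its exonic sequence overlaps other genes. *Ctsb*, the highest of this list, was at 230 ± 9.54 CPM in WT and 252 ± 33.2 CPM in cKO (SD, n = 2 each; log2 fold change 0.14, edgeR adjusted p = 0.579), and it was called without cKO 2 (0.26, adjusted p = 0.0351).

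Protease inhibitors moved in both directions, with 1 rise, 1 fall and 6 genes not called. *Cst7* encodes cystatin F, which restrains the cathepsins that activate granzymes. It fell by 1.02 with an SE of 0.18 (edgeR adjusted p = 0.0180), from 44.0 and 36.4 CPM to 17.1 and 22.9 CPM. *Serpinb6b*, a serpin of the family that inhibits granule proteases, rose by 0.89 with an SE of 0.15 (edgeR adjusted p = 0.0166), from 17.2 and 19.9 CPM to 34.5 and 33.7 CPM. Its call was lost without WT 1 (0.79, adjusted p = 0.0569) and without WT 2 (0.98, adjusted p = 0.0699). *Cst3*, with the highest level of the list, was at 49.2 ± 6.73 CPM in WT and 57.3 ± 16.7 CPM in cKO (SD, n = 2 each; log2 fold change 0.23, edgeR adjusted p = 0.584) and was called without cKO 2 (0.50, adjusted p = 0.0122). Death ligands and effector cytokines, the route of killing that needs no granule, gave 0 calls among 5 tested genes. *Ltb*, which encodes lymphotoxin beta, was at 632 ± 12.3 CPM in WT and 614 ± 25 CPM in cKO (SD, n = 2 each; edgeR adjusted p = 0.874).

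Genes close to the set on the chromosome were read in the same way. Within 100 kb of the 10 genes lay 98 other genes of the tables, of which 24 were tested and 2 called. *Adamts14*, a metalloprotease gene 24395 bases from *Prf1*, was counted 32 and 29 times in WT against 3 and 6 times in cKO; it fell by 2.60 on the log2 scale, SE 0.48 (edgeR adjusted p = 0.0213). It passed the low-count filter through the WT libraries alone, so a difference was built into its passing. Without WT 2 it was not called (-2.40, adjusted p = 0.161), and without cKO 2 the value was -3.24. *4930481A15Rik*, an antisense transcript near *Ctsw*, rose by 1.84 (edgeR adjusted p = 0.00756), but whether reads were counted by strand is not stated. Of the 11 neighbours of *Gzmb*, which are 4 other granzyme genes, pseudogenes and non-coding genes, 0 passed the low-count filter.

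Cells other than CD4+ T cells also carry the granule genes, so their markers were read beside them. The study enriched T cells magnetically and sorted them by flow cytometry. Its general flow cytometry methods name B220, CD4 and CD8beta for lineage gating. The gate for these libraries is not stated separately. The 9 NK cell markers summed to 47.4 and 38.1 CPM in the WT libraries and 22.8 and 21 CPM in cKO 1 and cKO 2, so this sum, like that of the 10 genes, was lower in both cKO libraries. *Eomes*, described above, made up most of it in WT and was the 1 called among the 3 tested. Several defining receptors were at or near 0. *Ncr1* had 2, 0, 3 and 0 counts in WT 1, WT 2, cKO 1 and cKO 2, *Klra8* had 0 in all, *Klra4* had 3 in cKO 1 alone and *Klre1* had 1 in each cKO library. The other members were above the floor in some libraries and went in different directions. *Klrb1c* had counts of 24, 7, 11 and 2 in the same order, *Cd244a* of 15, 5, 3 and 3, *Tyrobp* of 5, 11, 14 and 6, and *Fcer1g* of 5, 4, 27 and 7. Thus *Cd244a* was lower in both cKO libraries, *Fcer1g* higher in both, and the genotypes overlapped for *Klrb1c* and *Tyrobp*. Without *Eomes*, an omission chosen after the values were seen, the 8 markers summed to 7.77 and 6.02 CPM in the WT libraries and 11.8 and 4.02 CPM in the cKO libraries, and 0 of the 2 tested were called. The genotypes overlapped in this reduced sum. The part of NK cells in the lower granule genes was not tested. The NKT cell factor *Zbtb16* was at 3.35 and 3.79 CPM in WT and 1.71 and 3.17 CPM in cKO (edgeR adjusted p = 0.538).

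CD8 markers were split. *Cd8b1*, the beta chain of the CD8 co-receptor, was at 42.2 and 51.8 CPM in the WT libraries and 27.3 and 22.4 CPM in cKO 1 and cKO 2. It fell by 0.91 with an SE of 0.17 (edgeR adjusted p = 0.0201), and the call was lost without WT 2 (-0.76, adjusted p = 0.156). *Cd8a*, the alpha chain, was at 5.33 and 6.47 CPM in WT and 6.83 and 4.23 CPM in cKO, with overlapping genotypes (log2 fold change -0.07, edgeR adjusted p = 0.941). The summed CD8 level was 47.5 and 58.2 CPM in WT and 34.2 and 26.7 CPM in cKO, and its part in the lower granule genes was not tested. *Trdc*, the constant region of the delta chain that marks gamma-delta T cells, went the other way. It rose by 1.33 with an SE of 0.18 (edgeR adjusted p = 0.00577), from 11.7 and 12.5 CPM to 32.8 and 27.7 CPM. Of the gamma-delta list 2 of 5 symbols were matched.

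Markers of other cells and of T cell states were read in the same way. The 9 B cell markers summed to 39.8 and 51.5 CPM in the WT libraries and to 220 and 78.3 CPM in cKO 1 and cKO 2, and 2 of the 5 tested were called higher, of which *Pax5* (5, 4, 53 and 15 counts) passed the filter through the cKO libraries alone. The highest was *Cd74*, at 22.8 and 27.0 CPM in WT and 114 and 46.6 CPM in cKO; it rose by 1.71 (edgeR adjusted p = 0.0338), a call lost in DESeq2 (0.140) and without WT 2 (0.0738), and without cKO 1 the value was 0.91. The 9 myeloid markers, led by *Csf1r* (17.7, 19.9, 38.1 and 18.8 CPM in WT 1, WT 2, cKO 1 and cKO 2), summed to 32.1 and 38.6 CPM against 100.2 and 58.6 CPM, and 3 of the 8 tested were called higher. Of these *S100a9* (0, 1, 51 and 24 counts) passed the filter through the cKO libraries alone. Both sums were highest in cKO 1, and both were also higher in cKO 2 than in either WT library. The part of B cells and myeloid cells in the results was not tested. The mast cell and basophil list, led by *Cpa3* (1, 1, 3 and 2 counts), stayed between 0.152 and 0.759 CPM in sum. The 9 Treg markers summed to 642 and 555 CPM in WT and 1070 and 1285 CPM in cKO, with 5 rising and *Foxp3* the largest of these at 1.86 (edgeR adjusted p = 0.000447). The 5 memory or effector markers, led by *Ahnak*, summed to 735 and 658 CPM in WT and 530 and 1061 CPM in cKO. The genotypes overlapped in this sum, and the cKO libraries stood on opposite sides of the WT libraries. Of the 4 tested members, 3 had a log2 fold change above 0 and were not called. Among these were *Cd44* (0.0035, edgeR adjusted p = 0.996) and *Itgb1* (0.32, edgeR adjusted p = 0.529). The 1 that fell was *S100a6*, a calcium-binding protein gene of memory cells named here after its values were seen. It was at 41.3 and 37.7 CPM in WT and 12.5 and 21.2 CPM in cKO, and fell by 1.24 with an SE of 0.22 (edgeR adjusted p = 0.0178). *S100a4*, which was not tested, had 10 and 7 counts in WT against 3 and 2 in cKO. *Ahnak* was called higher without cKO 1 (0.72) and lower without cKO 2 (-0.50). Among naive T cell markers *Ccr7*, a homing receptor, fell by 0.62 (550.7 and 601 CPM in WT, 401 and 348 CPM in cKO; edgeR adjusted p = 0.0199), a call lost without WT 2 (0.262). *Il7r*, the receptor for a survival cytokine, rose by 1.04 (364 and 484 CPM in WT, 1048 and 694 CPM in cKO; edgeR adjusted p = 0.0257), a call lost in DESeq2 (0.0760). The 7 CD4 T cell markers summed to between 4066 and 4499 CPM in all libraries, and 1 was called higher. It was *Cd40lg*, at 85.4 and 81.0 CPM in WT and 131 and 117 CPM in cKO (log2 fold change 0.58, edgeR adjusted p = 0.0232).

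**Figure D5:**
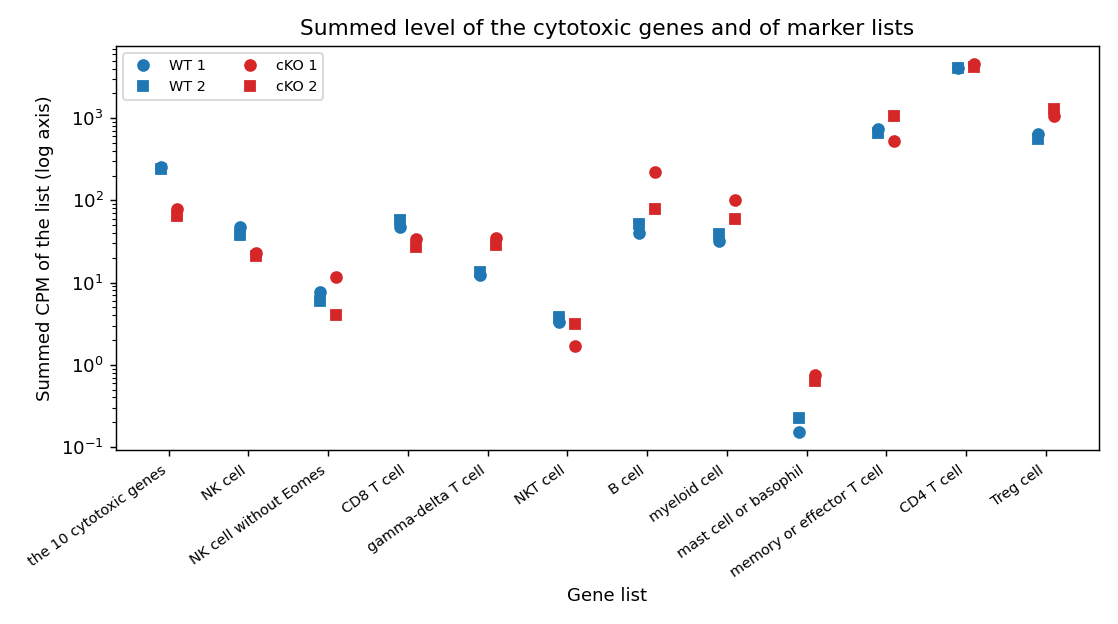
Summed CPM (log axis) of the 10 genes and of the marker lists described in the text in every library, with symbols and colours as in the plot of CPM by gene. The 10 genes lie at 253 and 241 CPM in WT and 77.4 and 63.7 CPM in cKO, and the full NK cell list lies at 47.4 and 38.1 CPM in WT and 22.8 and 21 CPM in cKO. Without *Eomes*, its single called member, left out after the values were seen, the NK cell list overlaps between genotypes.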

How the data were processed

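RNA of sorted splenic CD4+ T cells was sequenced in 4 libraries, 2 a genotype, as 50-base reads. The authors aligned reads to mm10 with HISAT2 2.1.0 and counted them per gene symbol with HTSeq (0.11.1 in the submitters' processing notes), and deposited raw counts of reads, not scaled for depth. The annotation and strand setting are not given in the sources used here. HTSeq summary lines were left out; reads outside annotated features were between 59.4% and 64.5% of those placed in a single position.

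Genes were kept by filterByExpr (minimum count 10), which left 12403. The edgeR 4.0.16 quasi-likelihood F test (R 4.3.3, two-sided, TMM factors, no covariate) compared cKO with WT, p-values adjusted by Benjamini-Hochberg across every tested gene and calls at 0.05. Intervals are at 95%. The procedure was tested on simulated data. DESeq2 1.42.0, other scalings, no filter, thinning, a replicate block and leaving out each library were alternatives; the last leaves 1 library in a genotype, taken to vary like the others. Positions, exonic lengths and overlaps come from GENCODE M21 (GRCm38, the same assembly as mm10), which held 53292 of the symbols. The floor was 3 counts. Shares have Wilson intervals.

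The 10 genes and the role and marker lists were chosen with earlier results of these data known. Named beyond the set were all called genes of the role lists, the highest gene of each list, called genes of the NK, CD8, gamma-delta and NKT lists and called neighbours within 100 kb. *Raet1a*, *Raet1b*, *Raet1c*, *Tcrg-C1*, *Tcrg-C2* and *Tcrg-C4* matched no symbol. *Klrc1*, *Cd8a*, *S100a4*, *S100a6*, *Pax5*, *S100a9*, *Ccr7*, *Il7r* and single NK cell markers were named outside this rule, after their values were seen. So were *Ddx3y*, *Ctsc*, *Cd44*, *Itgb1* and *Cd40lg*. The naive T cell list is reported in part. The NK cell sum without *Eomes* was chosen after seeing the data.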

Additional observations from a re-analysis of the deposited data

How the results depend on the processing

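The number of genes called, 533, moved to 1367 without the low-count filter and to 1165 with the replicate block, and ranged from 180 to 1783 with any single library omitted. Calls in the wider pathway, 8, moved to 17 without the filter and 16 with the block, and lay between 4 (without WT 2) and 25 (without cKO 2) in the leave-one-out fits. All 8 were among the 17 and among the 16. Marker calls, 22, lay between 13 and 34 and neighbour calls, 2, between 1 and 7 in those fits. For all of these the cause was not tested. Of the 10 genes, 7 were called in each fit that kept all 4 libraries, except without the filter (8, adding *Klrk1*). In the main fit 4.3% of all tested genes were called. The call of *Gzmk* did not hold in every fit that left a library out. Nothing is read from these calls, since the 10 genes were chosen with the same values known. Their log2 fold changes kept their sign in all 80 values over these alternatives, which groups that do not overlap fix in advance. Leaving out a library moved *Gzmb* between -4.25 and -3.30, *Gzma* between -5.34 and -3.74, *Klrd1* between -3.79 and -2.25 and *Prf1* between -1.41 and -0.82, each end without cKO 1 or cKO 2. Not every other named gene was followed over the alternatives, and *Pax5* and *S100a9* were among those that were not. Of 350 values for those that were, 323 kept their side of the threshold, 18 lost and 8 gained a call, and 1 reversed. The reversal was that of *Ahnak*, with a log2 fold change of 0.72 without cKO 1 and -0.50 without cKO 2. Replicate numbers are not stated to pair mice, and across genes the deviations of libraries with one number had a correlation of 0.0656. Granzyme shares stayed within their intervals when all granzyme genes of the tables formed the total. Counts under about 10 a library limit *Gzmm*, *Gzmc* and, in cKO, *Gzma*, *Klrd1* and *Klrk1*.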
